A study of Homo sapiens with 9 samples.

Results

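The genes described here are CASP6, CASP9, APAF1, CYCS, DIABLO, XIAP, BIRC2 and BIRC3, which encode the apoptosome, a pair of caspases and the inhibitor of apoptosis proteins (IAPs) with an antagonist. They were chosen by name, and all 8 were found among the 58920 genes listed in each count table. The samples were 9 RNA-seq libraries of LIM1215, a colorectal cancer cell line that was RAS wild-type before selection, with 3 libraries for each of 3 lines. LIM1215-R1 and LIM1215-R2 are resistant populations that had been selected in parallel with rising doses of cetuximab, an antibody against the EGF receptor. LIM1215-parental cells were kept alongside without the antibody, and RNA of all lines came from untreated cells. Both resistant lines are mixed populations and not single clones, and the study describes subpopulations with activating HRAS mutations in both; each line was sampled from 1 selection, and the study describes its replicates as technical, so the p-values measure the spread between these libraries only. In such bulk RNA, fewer expressing cells and less RNA per cell cannot be told apart. Total counts were 13737416 to 18725014 per library, with TMM factors from 0.984 to 1.02. Of 9 colon epithelial markers, 8 had counts, summing to 12754 to 13070 CPM (counts scaled to library size) in parental, 15625 to 15807 in LIM1215-R1 and 14268 to 14746 in LIM1215-R2 libraries. KRT20, also on that list, had 0 counts in all 9 libraries. The counted markers moved in different directions by the test described below. KRT8, KRT18 and VIL1 were called higher in both resistant lines, with KRT8 at log2 fold changes of 0.46 and 0.33. KRT8 and KRT18 made up most of the sum. EPCAM, CDH17, CDX2 and LGALS4 were called lower in both, with CDH17 at -0.53 and -0.58, and CDH1 was not called. Of 11 markers of leukocytes, fibroblasts and endothelium, 8 had counts, summing to 2.88 to 3.35 CPM in parental, 1.85 to 2.19 in LIM1215-R1 and 1.07 to 1.68 in LIM1215-R2 libraries, with PTPRC, CD3E and COL1A2 at 0. PECAM1, on the second list, was called lower in both resistant lines, with 2, 10 and 3 counts in the parental libraries and 0 in each resistant library. The part of either marker list in the results was not tested.

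In the intrinsic pathway of apoptosis, cytochrome c, encoded by CYCS, leaves the mitochondria and binds APAF1, and the resulting wheel-shaped apoptosome recruits and activates the initiator caspase CASP9. CASP9 then cleaves executioner caspases, and CASP6 belongs to that executioner class and is known for cutting nuclear lamins. XIAP binds and inhibits caspases directly. BIRC2 and BIRC3 encode the ubiquitin ligases cIAP1 and cIAP2, which sit at TNF receptors, promote canonical NF-kB signalling and keep the non-canonical NF-kB kinase MAP3K14 low. DIABLO, also called SMAC, is released from mitochondria and displaces IAPs. BIRC3 is itself a well-known NF-kB target gene.

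BIRC2 and BIRC3 lie next to each other on chromosome 11, and the 250 bases before the RefSeq start of each (GRCh38.p14, plus strand) are shown because the neighbours moved in opposite directions in both resistant lines. The capitals mark matches to the NF-kB consensus, searched on both strands.
BIRC3 (chr11:102317234-102317483): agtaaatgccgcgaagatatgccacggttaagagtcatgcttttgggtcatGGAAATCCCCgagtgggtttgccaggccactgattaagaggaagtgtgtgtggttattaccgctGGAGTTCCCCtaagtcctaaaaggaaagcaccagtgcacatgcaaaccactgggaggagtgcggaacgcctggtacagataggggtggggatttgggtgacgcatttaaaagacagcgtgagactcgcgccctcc
BIRC2 (chr11:102346964-102347213): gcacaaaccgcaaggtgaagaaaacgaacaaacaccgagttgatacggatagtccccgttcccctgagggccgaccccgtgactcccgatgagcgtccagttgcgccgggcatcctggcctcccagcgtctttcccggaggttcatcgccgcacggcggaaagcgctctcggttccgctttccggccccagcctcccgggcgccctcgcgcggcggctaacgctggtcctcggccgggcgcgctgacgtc
The BIRC3 window held 2 matches, GGGGATTTCC and GGGGAACTCC when read on the minus strand, at 199 to 190 and 135 to 126 bases before the start. No match was found in the BIRC2 window or in those of the other 6 members. At least 1 match was present in 9.96% of the 35116 RefSeq windows of that length, and in a window of 15.2% of the tested genes that had one. The matches describe the letters only, and binding was not measured.

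In LIM1215-R1 cells, BIRC3 RNA was about 2-fold higher than in parental cells, CASP6 and BIRC2 were lower, and the other 5 members did not pass the test. In LIM1215-R2 cells, BIRC3 rose by a smaller amount and CASP6, BIRC2 and APAF1 fell. CYCS, CASP9 and DIABLO passed in no comparison. A gene was called changed at an adjusted p of at most 0.01 in the quasi-likelihood test of edgeR, Benjamini-Hochberg adjusted over 19102 tested genes, and log2 fold changes are given with a standard error (SE) or a 95% interval. In LIM1215-R1 against parental, 3 of the 8 members were called, 1 higher and 2 lower, where 27.3% of all tested genes were called. In LIM1215-R2 against parental, 4 were called, 1 higher and 3 lower, against 23.8% of all genes. Between the resistant lines, LIM1215-R2 against LIM1215-R1, 1 member was called, against 7.16% of all genes. The median log2 fold change over the members was -0.09, -0.09 and -0.01 in these comparisons, and over all tested genes -0.01, -0.0037 and -0.0011. No member reached an absolute log2 fold change of 1.5 beside the call, the size the study asked of differentially expressed genes. In this fit 5.14%, 4.82% and 0.764% of genes passed both. With the lfcShrink function of DESeq2, run with its normal prior, 1.35%, 1.44% and 0.0209% did. The study also used lfcShrink and does not name its prior. It reports more genes shared by both resistant lines than passed here in either, so these shares are not the study's. At an unadjusted p under 0.05, 4, 5 and 2 members differed, as did 8230, 7611 and 4700 of the 19102 tested genes. Both comparisons with parental cells share the same 3 parental libraries.

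**Figure D1:**
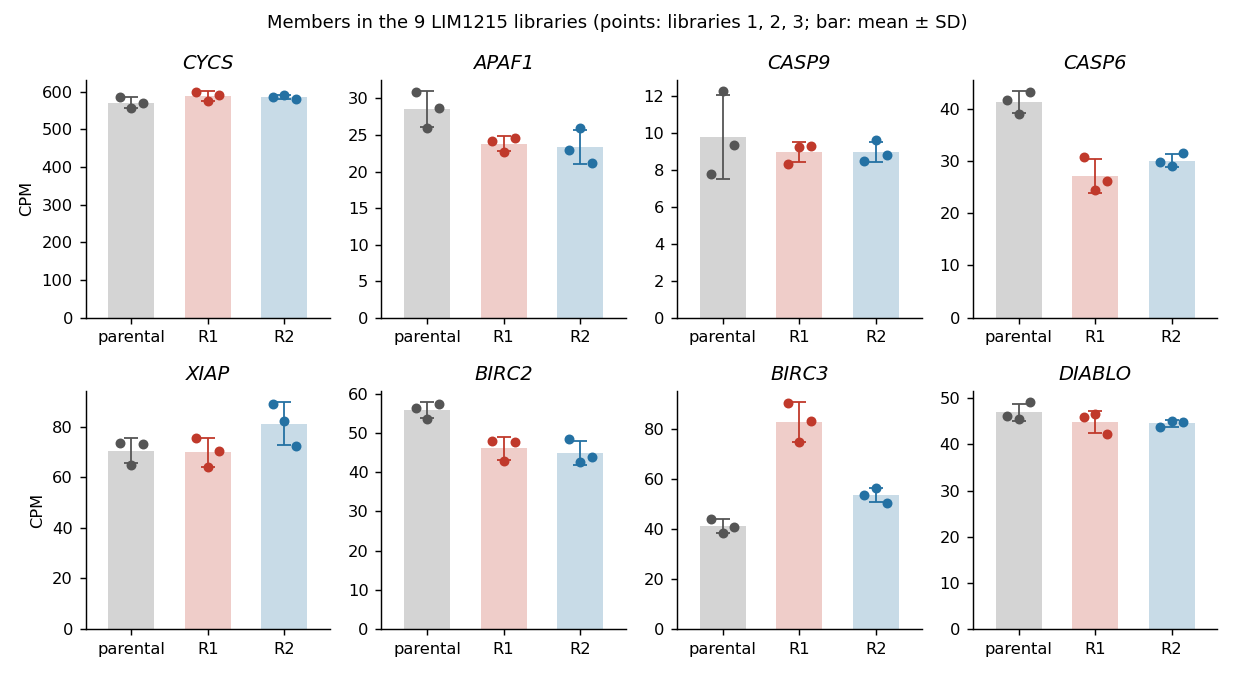
Level of each member as CPM (y axes from 0) in the 3 libraries of LIM1215-parental, R1 and R2; points are libraries 1 to 3 from left to right, bars are means and error bars the SD. The 3 BIRC3 points of each line are separate from those of the other lines, the CASP6 points of both resistant lines lie below all parental points, and CYCS is level across the lines.

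**Figure D2:**
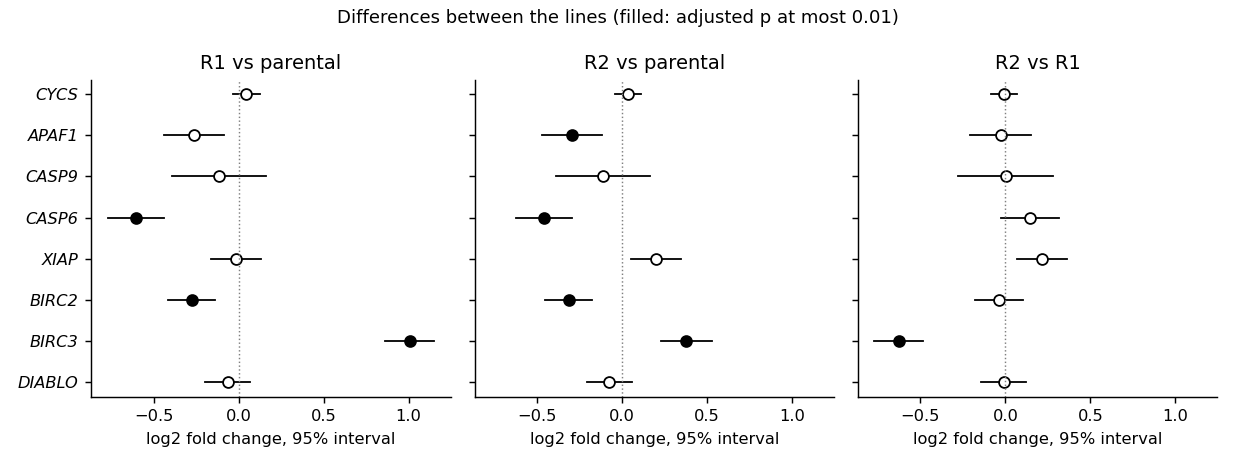
Log2 fold change of each member (x axis) with its 95% interval in the 3 comparisons; filled points have an adjusted p of at most 0.01. BIRC3 is the single member called in all 3 panels, at 1.01, 0.38 and -0.63.

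CYCS, the source of cytochrome c (chromosome 7, 25118656 to 25125260, minus strand, in the RefSeq annotation of GRCh38.p14, as for the positions that follow), had the highest level of the members. Its CPM was 586, 556 and 571 in the parental libraries, 600, 575 and 593 in LIM1215-R1 and 586, 590 and 581 in LIM1215-R2. The 3 lines overlapped. The log2 fold changes were 0.05 (95% interval -0.03 to 0.12) for LIM1215-R1 and 0.04 (-0.04 to 0.11) for LIM1215-R2 against parental. After correction for GC content and transcript length in each library, CYCS was called higher in LIM1215-R1, at 0.18 and an edgeR adjusted p of 2.5e-06. CYCS has many processed pseudogenes, of which 45 had rows in the tables. Those rows took 261 counts over the 9 libraries, against 85185 for CYCS itself, and 3.59% of the 50-base stretches of the CYCS transcript also occur in transcripts of other genes.

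APAF1, the scaffold of the apoptosome (chromosome 12, 98645290 to 98735433, plus strand), fell in LIM1215-R2 by a small amount. The parental libraries had 30.9, 26.0 and 28.7 CPM, the LIM1215-R1 libraries 24.2, 22.7 and 24.6, and the LIM1215-R2 libraries 23.0, 25.9 and 21.2. The highest LIM1215-R2 library was just under the lowest parental one. The change passed in LIM1215-R2 (log2 fold change -0.29, SE 0.0856, adjusted p of edgeR's test 0.00896) and not in LIM1215-R1 (-0.26, SE 0.0854, adjusted p = 0.0158). Between the resistant lines the difference was -0.03, with an interval from -0.21 to 0.15. The adjusted p lay near the threshold in both lines. In the study's own DESeq2 results, APAF1 was lower in both lines, with an adjusted p under 0.01 in LIM1215-R2 and over it in LIM1215-R1. APAF1 passed in LIM1215-R1 without parental replicate 2 (adjusted p = 0.00415, edgeR), and it did not pass in LIM1215-R2 without parental replicate 1, 3, LIM1215-R1 replicate 3 or LIM1215-R2 replicate 1 or 3, with adjusted p of 0.0699, 0.0288, 0.0132, 0.0391 and 0.0647 in edgeR, or with DESeq2's Wald test (adjusted p = 0.0176).

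CASP9, the initiator caspase that the apoptosome activates (chromosome 1, 15491401 to 15524912, minus strand), was the least counted member, with 132 to 178 counts per library. Its CPM was 7.79, 12.3 and 9.35 in parental, 8.34, 9.23 and 9.32 in LIM1215-R1, and 8.50, 9.60 and 8.82 in LIM1215-R2 libraries. The parental libraries spanned all the others. The log2 fold change was -0.11 in each resistant line against parental, with 95% intervals from -0.39 to 0.16 in both. Its direction rested on single parental libraries: without parental replicate 2 both values were 0.06, and without parental replicate 1 both were -0.25.

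CASP6, the executioner caspase among the members (chromosome 4, 109664388 to 109709767, minus strand), fell in both resistant lines. It measured 41.7, 38.9 and 43.1 CPM in the parental libraries, 30.8, 24.4 and 26.2 in LIM1215-R1 and 29.8, 28.9 and 31.4 in LIM1215-R2. All 6 resistant libraries were below all 3 parental ones. The level was 1.52-fold lower in LIM1215-R1 (log2 fold change -0.61, SE 0.0802, adjusted p of edgeR's test 6.85e-07) and 1.37-fold lower in LIM1215-R2 (-0.46, SE 0.0793, adjusted p = 3.8e-05, edgeR). The difference between the resistant lines, 0.15 with an interval from -0.02 to 0.32, did not pass.

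XIAP, the IAP that inhibits caspases directly (chromosome X, 123859708 to 123913972, plus strand), had 73.7, 64.9 and 73.0 CPM in the parental libraries, 75.5, 64.0 and 70.3 in LIM1215-R1, and 89.0, 82.3 and 72.2 in LIM1215-R2. In LIM1215-R2 2 libraries were above all others and replicate 3 lay within the range of the other lines. The log2 fold change in LIM1215-R2 was 0.20 (interval 0.05 to 0.35, adjusted p of edgeR's test 0.0325) and did not pass. It passed without LIM1215-R2 replicate 3 (0.27, adjusted p = 0.00531, edgeR). Without that library XIAP also passed in LIM1215-R2 against LIM1215-R1 (0.29, adjusted p = 0.00897, edgeR), where all libraries gave 0.22 (adjusted p = 0.0462, edgeR). In LIM1215-R1 the direction depended on the processing. The log2 fold change was -0.02 (interval -0.16 to 0.13), and 0.19 with an adjusted p of 0.00143 in edgeR once the counts were corrected for GC content and transcript length. The XIAP transcript, with 8558 bases and 38.9% GC, is longer and poorer in GC than the median tested gene at 2709 bases and 48.5%, and 4.81% of its 50-base stretches also occur in transcripts of other genes.

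DIABLO, the IAP antagonist released from mitochondria (chromosome 12, 122207662 to 122227456, minus strand), varied little. The libraries had 46.3, 45.5 and 49.1 CPM in parental, 45.9, 46.6 and 42.2 in LIM1215-R1 and 43.8, 45.2 and 44.9 in LIM1215-R2 cells. The log2 fold changes were -0.07 (-0.20 to 0.07) and -0.08 (-0.21 to 0.06) against parental. In GENCODE release 44, 2 readthrough genes on the same strand cover 100% of the DIABLO exons, and reads shared with them could have been left out of the DIABLO count.

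BIRC2, which encodes cIAP1, fell in both resistant lines. The parental libraries had 56.5, 53.7 and 57.5 CPM, those of LIM1215-R1 47.9, 42.8 and 47.8, and those of LIM1215-R2 48.4, 42.6 and 43.96. Each resistant library was below each parental one. The level was 1.21-fold lower in LIM1215-R1 (log2 fold change -0.28, SE 0.0667, adjusted p of edgeR's test 0.00156) and 1.24-fold lower in LIM1215-R2 (-0.31, SE 0.0668, adjusted p = 0.000494, edgeR). The resistant lines differed by -0.04, with an interval from -0.18 to 0.10. In LIM1215-R1 the change missed the threshold without parental replicate 3 or without LIM1215-R1 replicate 2, at adjusted p of 0.0120 and 0.0123 in edgeR.

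BIRC3, which encodes cIAP2, showed the largest change among the members in LIM1215-R1 and between the resistant lines. Its CPM was 44.2, 38.6 and 40.9 in parental, 90.5, 74.9 and 83.3 in LIM1215-R1, and 53.8, 56.4 and 50.6 in LIM1215-R2 libraries. No library of any line entered the range of another line. The level was 2.01-fold higher in LIM1215-R1 (log2 fold change 1.01, SE 0.0707, adjusted p of edgeR's test 4.6e-12) and 1.30-fold higher in LIM1215-R2 (0.38, SE 0.0729, adjusted p = 0.000155, edgeR). Between the resistant lines it was 1.55-fold lower in LIM1215-R2 (-0.63, SE 0.0691, adjusted p = 2.25e-07, edgeR). All 3 differences passed under each of 19 alternative settings, within 0.94 to 1.23, 0.34 to 0.43 and -0.80 to -0.52.

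Counts of both cIAP genes come from the same library, so their ratio does not depend on its depth. For each BIRC2 count there were 0.783, 0.719 and 0.711 BIRC3 counts in the parental libraries, 1.89, 1.75 and 1.74 in LIM1215-R1 and 1.11, 1.32 and 1.15 in LIM1215-R2. The ratio was 0.738 ± 0.0393 (SD, n = 3) in parental, 1.79 ± 0.0833 for LIM1215-R1 and 1.20 ± 0.113 for LIM1215-R2 cells, with no overlap between lines. The ratio compares counts of transcripts of unequal length and is not a ratio of levels. Of the 50-base stretches, 0.161% of those in the BIRC3 transcript also occur in the BIRC2 transcript. The genes lie on the same strand, at 102317484 to 102339403 for BIRC3 and 102347214 to 102378670 for BIRC2, with 7811 bases between them. On the BIRC3 side the next well-counted gene is YAP1, the coactivator of the Hippo pathway, at a distance of 84060 bases. YAP1 had 127 ± 6.02 CPM in parental, 132 ± 5.49 for LIM1215-R1 and 137 ± 6.41 for LIM1215-R2 cells and was not called (log2 fold changes 0.06 and 0.11 against parental, intervals -0.05 to 0.17 and 0.0041 to 0.22), but it was called higher in both lines after the GC and length correction (0.16 and 0.15, adjusted p = 0.000759 and 0.00117, edgeR). On the BIRC2 side lies TMEM123, at 325 ± 15.7, 268 ± 22.8 and 297 ± 13.7 CPM. TMEM123 fell in LIM1215-R1 (-0.28, adjusted p = 0.000125, edgeR) and did not pass in LIM1215-R2 (-0.13, adjusted p = 0.0629), where it passed after that correction (-0.14, adjusted p = 0.000289, edgeR). A pseudogene, RPS6P17, and the noncoding TMEM123-DT had 13 counts each over all libraries and were not called.

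**Figure D3:**
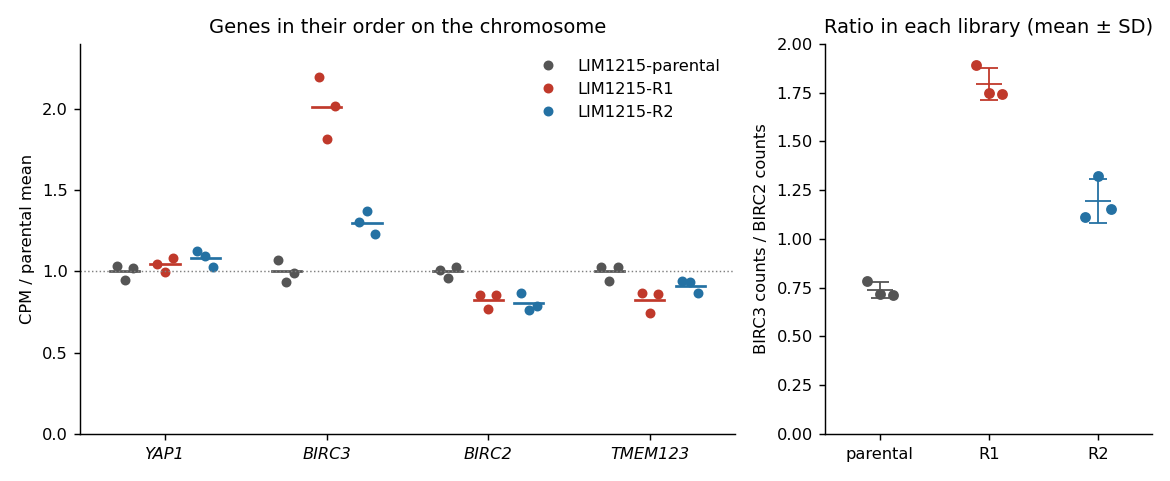
Left, CPM of each library divided by the parental mean (y axis from 0) for BIRC3, BIRC2 and the nearest well-counted gene on each side, in chromosome order; short lines are means. Right, BIRC3 counts divided by BIRC2 counts in each library, with mean ± SD; the ratio was 0.738 in parental cells, 1.79 for LIM1215-R1 and 1.20 for LIM1215-R2.

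The genes whose pattern over the 9 libraries was most like that of BIRC3, among 9302 genes with a mean of at least 10 CPM, were ANXA3, MRM3, DRAM1, PDE4D and GARS1, with Pearson correlations of log2 CPM from 0.986 to 0.993. These values describe libraries that fall into 3 lines and carry no test.

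Levels of different genes were compared as CPM per kilobase of the MANE Select transcript, averaged over 3 libraries. In parental cells CYCS stood at 105 ± 2.75 (SD), followed by DIABLO at 31.9 ± 1.29, CASP6 at 25.2 ± 1.31, BIRC2 at 14.8 ± 0.522, XIAP at 8.24 ± 0.569, BIRC3 at 5.99 ± 0.411, APAF1 at 3.97 ± 0.342 and CASP9 at 3.49 ± 0.812. The neighbours in this order were apart by more than their SDs, except APAF1 and CASP9. In LIM1215-R1 cells BIRC3, at 12.1 ± 1.14, lay above XIAP, at 8.17 ± 0.673, and within the spread of BIRC2, at 12.3 ± 0.775. In LIM1215-R2 cells BIRC3 was at 7.80 ± 0.423, below BIRC2 at 11.95 ± 0.805 and XIAP at 9.49 ± 0.983. The order rests on the transcript chosen: with the longest transcript of each gene, DIABLO in parental cells came to 15.1, under CASP6, BIRC2 to 13.7 and CASP9 to 2.20.

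**Figure D4:**
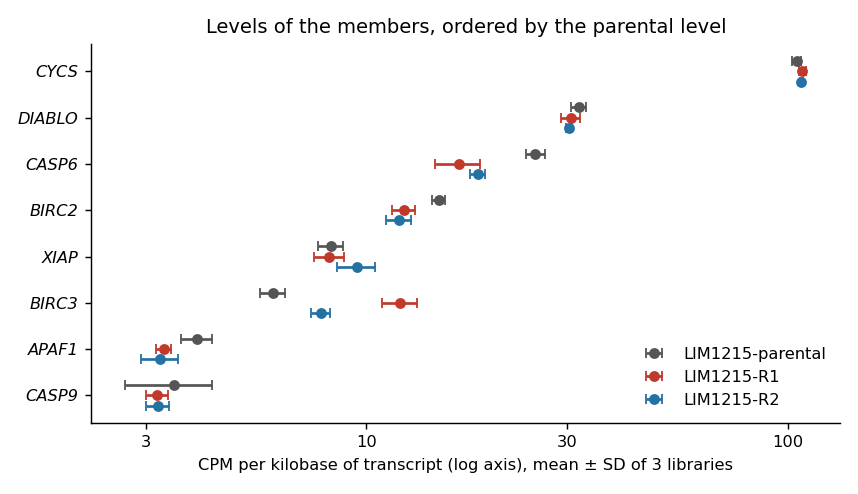
CPM per kilobase of transcript (log x axis), mean ± SD of 3 libraries per line, for the members in the order of the parental level. CYCS is highest at 105, APAF1 and CASP9 are lowest, and BIRC3 of LIM1215-R1 reaches the level of BIRC2.

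To place the members among their partners, 59 further genes of 9 lists were taken, of which 53 were tested. In LIM1215-R1 22 were called, 17 higher and 5 lower, against 14% and 13.4% of all genes, with a median log2 fold change of 0.11. In LIM1215-R2 17 were called, 11 higher and 6 lower, against 12.3% and 11.6% of all genes, with a median of 0.07. Between the resistant lines 13 were called, 1 higher and 12 lower in LIM1215-R2, where 3.39% and 3.77% of all genes were called. These are 41.5%, 32.1% and 24.5% of those tested. Genes named from these lists were those called against parental whose log2 fold change was 0.5 or more in size, and others are named after their values were seen.

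Among the IAPs and their partners, BIRC6, a very large IAP with ubiquitin-ligase activity, went in opposite directions. Its CPM was 206, 194 and 197 in parental, 174, 168 and 163 in LIM1215-R1 and 232, 235 and 218 in LIM1215-R2 libraries. The lines did not overlap. The log2 fold change was -0.24 (adjusted p = 0.000188, edgeR) in LIM1215-R1, 0.20 (adjusted p = 0.00142, edgeR) in LIM1215-R2 and 0.44 (adjusted p = 1.54e-07, edgeR) between the resistant lines. The rise in LIM1215-R2 missed the threshold without LIM1215-R2 replicate 1 or 2, with adjusted p of 0.0105 and 0.0174 in edgeR. HTRA2, a mitochondrial protease that like DIABLO binds IAPs once released, rose in both lines, with log2 fold changes of 0.35 and 0.31. Its call in LIM1215-R2 was lost without parental replicate 1 or LIM1215-R2 replicate 3, with adjusted p of 0.0156 and 0.0181 in edgeR. XAF1, an interferon-inducible protein that binds XIAP, had 2, 0 and 1 counts in the parental libraries, 16, 9 and 11 in LIM1215-R1 and 21, 31 and 26 in LIM1215-R2. Scaled by TMM library size, the summed counts in LIM1215-R1 were 12.4 times those of parental cells (exact 95% counting interval 3.92 to 62.9). In LIM1215-R2 they were 26.8 times those of parental cells (8.85 to 133). Both differences were called (adjusted p = 7.22e-05 and 1.18e-07, edgeR). XAF1 stayed under 2 CPM in all libraries, and its fold depended on the 3 parental counts and on the method. The fitted log2 fold changes of 3.47 and 4.58 became 4.31 and 5.42 without parental replicate 1, and 0.30 and 1.06 with the lfcShrink function of DESeq2.

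Of the apoptosome regulators beside the members, 3 of 7 were called in LIM1215-R1, against 27.3% of all genes. HCCS, which attaches heme to cytochrome c, rose by a log2 fold change of 0.31, and the nuclear proteins PTMA and ANP32A fell, at -0.18 and -0.17. In LIM1215-R2 2 of 7 were called, against 23.8% of all genes, PTMA at -0.25 and ANP32A at -0.22. The fall of ANP32A in LIM1215-R1 was lost without parental replicate 1 or LIM1215-R1 replicate 2 or 3, with adjusted p of 0.0239, 0.0152 and 0.0241 in edgeR. Of the 3 other initiator caspases, CASP2 fell in LIM1215-R1 at -0.22, a call lost without LIM1215-R1 replicate 3 (adjusted p = 0.0158, edgeR). CASP10 was lower in LIM1215-R2 than in LIM1215-R1, at -0.52, and that call was lost without LIM1215-R1 replicate 1, 2 or 3 or LIM1215-R2 replicate 1, with adjusted p of 0.0204, 0.0117, 0.0277 and 0.104 in edgeR. None of the other executioner, inflammatory or further caspases, 5 tested, was called in any comparison by edgeR or by DESeq2's Wald test. At an unadjusted p under 0.05, 3 of them differed in LIM1215-R2 against parental, as did 7611 of the 19102 tested genes. Between the resistant lines 1 of them did, as did 4700 of those genes.

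Among 11 caspase substrates and effectors of cell dismantling, 3 were called for LIM1215-R1 and 2 for LIM1215-R2, against 27.3% and 23.8% of all genes. GSDME, the gasdermin that an executioner caspase turns into a pore-forming fragment, fell in both lines. It had 28, 39 and 45 counts in the parental libraries, 14, 13 and 9 in LIM1215-R1 and 6, 9 and 7 in LIM1215-R2, which gave log2 fold changes of -1.59 (SE 0.300) and -2.29 (SE 0.330). Both fitted values were past the size the study asked for. With the lfcShrink function of DESeq2, run with its normal prior, they became -0.61 and -0.93, under that size. The study does not name its prior, so these values cannot tell whether GSDME passed the study's own filter. LMNA, the lamin gene whose product CASP6 is known to cut, rose in LIM1215-R1 at 0.33 and was lower in LIM1215-R2 than in LIM1215-R1, at -0.22. PANX1, a membrane channel that caspases open, rose in LIM1215-R1 at 0.31, a call lost without LIM1215-R1 replicate 3 (adjusted p = 0.0135, edgeR). DFFA, the inhibitor of the apoptotic DNase, rose in LIM1215-R2 at 0.21, a call lost without parental replicate 3 or LIM1215-R2 replicate 2 (adjusted p = 0.0207 and 0.0146, edgeR).

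Of the 11 tested partners of cIAP1 and cIAP2 at TNF receptors and in non-canonical NF-kB signalling, 7 were higher in LIM1215-R1 and 6 were higher in LIM1215-R2, against 14% and 12.3% of all genes, and none fell. MAP3K14, the kinase that cIAPs mark for degradation, had 11.2 ± 1.10 CPM in parental, 21.6 ± 0.713 for LIM1215-R1 and 16.1 ± 0.862 for LIM1215-R2 cells. NFKB2, the precursor that this pathway processes, had 58.4 ± 3.71, 113 ± 3.34 and 74.3 ± 0.702 CPM. RELB, the partner of the processed NFKB2 product, had 22.0 ± 1.42, 38.6 ± 2.11 and 27.1 ± 1.52 CPM. Of the 11 partners, these 3 were called between the resistant lines, higher in LIM1215-R1 than in LIM1215-R2 by 0.42, 0.61 and 0.51 on the log2 scale, a direction called for 3.77% of all genes. TRAF1, an adaptor that binds cIAPs, named after its values were seen, had 2.10 CPM for LIM1215-R1 and 3.50 for LIM1215-R2 and did not pass (0.74, adjusted p = 0.0150, edgeR). The MAP3K14 difference between the resistant lines was lost without LIM1215-R1 replicate 3 or LIM1215-R2 replicate 1 (adjusted p = 0.0162 and 0.0230, edgeR). The RELB rise in LIM1215-R2, a log2 fold change of 0.31, was lost without parental replicate 1 or LIM1215-R2 replicate 1 or 2 (adjusted p = 0.0336, 0.0181 and 0.0288, edgeR) and after the GC and length correction (0.14, adjusted p = 0.127). The receptors TNFRSF1B and TNFRSF12A rose by 0.85 and 0.83 in LIM1215-R1 and by 0.98 and 0.73 in LIM1215-R2, and the resistant lines did not differ in them by the test (0.13, interval 0.01 to 0.25, and -0.10, interval -0.24 to 0.04). TRAF3, the adaptor that links cIAPs to MAP3K14, rose by 0.44 and 0.26. LTBR, the lymphotoxin beta receptor, rose by 0.25 in LIM1215-R1, a call lost without parental replicate 1 or LIM1215-R1 replicate 2 (adjusted p = 0.0228 and 0.0145, edgeR) and after the GC and length correction (0.08, adjusted p = 0.131).

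Further NF-kB target genes did not all follow BIRC3. Of 9 tested, 5 rose in LIM1215-R1, against 14% of all genes, which were CXCL8 at 1.64, NFKBIE at 0.64, CCL20 at 0.61, ICAM1 at 0.59 and TNFAIP3 at 0.58. In LIM1215-R2 CXCL8 alone rose, at 0.95, while CCL20 at -1.08, NFKBIA at -0.35 and CXCL1 at -0.33 fell. Over all genes, 12.3% were called higher and 11.6% lower in LIM1215-R2 against parental. CXCL8, a chemokine for neutrophils, had 34.2 ± 3.78 CPM in parental, 107 ± 8.47 for LIM1215-R1 and 66.5 ± 4.96 for LIM1215-R2 cells. CCL20, a chemokine for lymphocytes, had 7.50 ± 0.735, 11.4 ± 0.311 and 3.51 ± 0.433 CPM, so that the resistant lines lay on opposite sides of the parental one. Between the resistant lines 7 of the 9 were called, all lower in LIM1215-R2, against 3.77% of all genes.

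**Figure D5:**
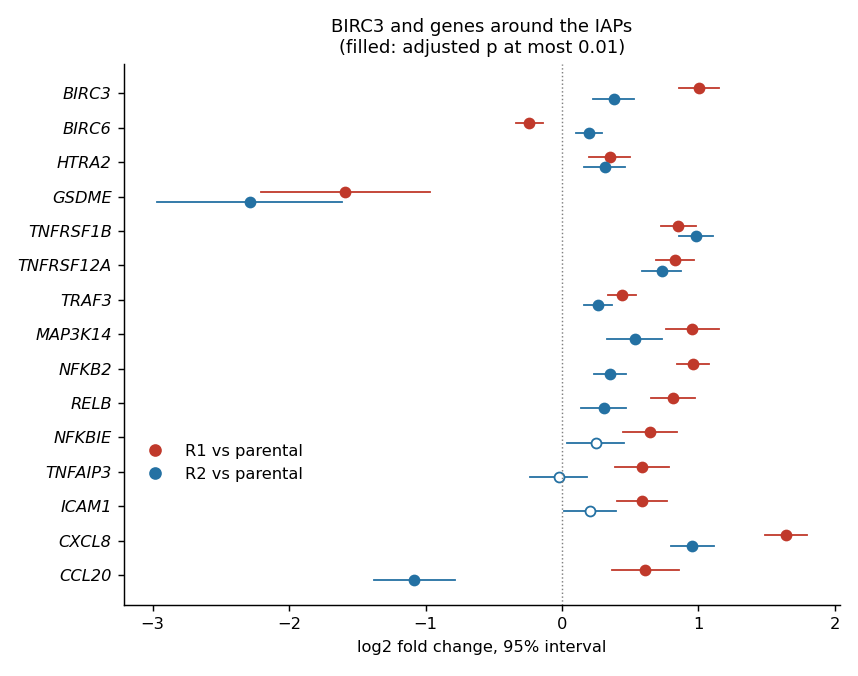
Log2 fold change against parental (x axis) with its 95% interval for BIRC3 and named genes around the IAPs in LIM1215-R1 (red) and LIM1215-R2 (blue); filled points have an adjusted p of at most 0.01. NFKB2, RELB and MAP3K14 lie right of 0 in both lines and further right in LIM1215-R1, and CCL20 and BIRC6 lie on opposite sides of 0.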

How the data were processed

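LIM1215-parental, LIM1215-R1 and LIM1215-R2 were each measured in 3 stranded, paired-end poly(A) RNA-seq libraries. The authors aligned reads to hg38 with STAR and deposited raw counts per gene, made with HTSeq 0.9.1 on the reverse strand and not normalized. The annotation and counting mode are not given in the sources used here. Libraries were grouped by the line in their labels. A gene needed 10 counts summed over the 9 libraries. The 3 lines formed the groups of a quasi-likelihood fit to all libraries (edgeR 4.0.16, limma 3.58.1, R 4.3.3) with TMM scaling, which was first tested on simulated counts. Where the study used DESeq2, DESeq2 1.42.0 was an alternative here. Its lfcShrink function was run with the normal prior, and the study does not name its own. CPM uses the TMM factors, except in the marker sums, which use total counts only, and log2 CPM a prior count of 2. Transcript length and GC content came from GENCODE release 44 and covered 86.3% of tested genes, positions and promoters from RefSeq. The members, gene lists and tests were chosen with earlier results of these data known. The genes named were the 8 members, up to 12 list genes called against parental at a log2 fold change of 0.5 or more in size, the nearest 2 tested genes on each side of BIRC2 and BIRC3, the 5 genes most like BIRC3, and further list genes named after their values were seen. Alternatives were other filters, scalings, thresholds and tests, fits to the 6 libraries compared, thinned counts, GC and length trends removed, the replicate number as a block, and each library left out. Some genes are not reported here. Counting intervals cover counting error only.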

Additional observations from a re-analysis of the deposited data

Results flagged for a closer look

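Both resistant lines were compared with the same parental libraries, and their effects differed from each other by edgeR's test of LIM1215-R2 against LIM1215-R1 for BIRC3 and for 8 of the 12 list genes with the largest changes. These 12 genes were chosen for their change against parental, partly through the LIM1215-R1 libraries, so their number is no test. All 9 were lower in LIM1215-R2, and XAF1 was higher there without passing (1.11, adjusted p = 0.0291, edgeR). Over all tested genes, 7.16% were called between the resistant lines, and 3.77% were called lower in LIM1215-R2. The log2 difference was -0.63 for BIRC3, -1.69 for CCL20 (-0.89 with the lfcShrink function of DESeq2), -0.69 for CXCL8, -0.61 for NFKB2, -0.61 for TNFAIP3, -0.51 for RELB, -0.42 for MAP3K14, -0.40 for NFKBIE and -0.38 for ICAM1. BIRC3, NFKB2, RELB, MAP3K14 and CXCL8 were still above parental in LIM1215-R2, and CCL20 was below it. The calls of NFKBIE and ICAM1 were lost without LIM1215-R1 replicate 2 or 3, without LIM1215-R2 replicate 1, and without LIM1215-R2 replicate 2 for NFKBIE or replicate 3 for ICAM1, with adjusted p between 0.0130 and 0.0492 in edgeR, and that of MAP3K14 without LIM1215-R1 replicate 3 or LIM1215-R2 replicate 1 (adjusted p = 0.0162 and 0.0230). The lines with 3 libraries are too small for a test of single outlying libraries.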

How the results depend on the processing

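The calls of BIRC3 in all 3 comparisons, of CASP6 in both lines against parental and of BIRC2 in LIM1215-R2 held under all 19 alternatives. CASP9 and DIABLO passed under none. Corrected for GC content and length, 5 members were called in LIM1215-R1 in place of 3, with CYCS and XIAP added, and XIAP there turned from -0.02 to 0.19. Over all genes, calls in that comparison rose as well, from 2667 higher and 2555 lower to 3201 and 2947. APAF1 passed in 3 of 19 alternatives in LIM1215-R1 and in 10 of 19 in LIM1215-R2. XIAP passed in 4 of 19 in LIM1215-R2. Between the resistant lines 2 members were called in place of 1 with the replicate block and with the wider threshold of 0.05 on the adjusted p, and leaving out each library gave 1 to 2. The 2 came without LIM1215-R2 replicate 3, where 586 of all genes were called higher and 639 lower, fewer than with all libraries. The other list genes called between them rose from 13 to 20 with the replicate block, to 20 after the GC and length correction, and to 22 at the wider threshold. Over all genes, calls between the resistant lines rose as well, from 648 higher and 720 lower to 1026 and 1018 with the block. They came to 689 and 1235 after the correction and to 1230 and 1248 at the wider threshold. Same-numbered libraries of different lines had correlations of their deviations from the line means between -0.107 and 0.274. Those of other-numbered libraries lay between -0.265 and 0.191. The ranges overlapped, and a pairing of the samples by number was not tested. With the block, XIAP passed in LIM1215-R2 against parental (adjusted p = 0.00448, edgeR) and between the resistant lines (adjusted p = 0.00517), and APAF1 in LIM1215-R1 (adjusted p = 0.00774). With the longest transcript, the parental levels of CASP9, BIRC2 and DIABLO moved to 2.20, 13.7 and 15.1 CPM per kilobase from 3.49, 14.8 and 31.9. The causes of the other changes were not tested. Few counts limit XAF1, with 3 in the parental libraries.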
